A study of Mus musculus with 21 samples.

Results

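The glomerular response to nephrotoxic serum at day 4 was examined in Epac1fl/fl mice, which carry floxed alleles and lack a Cre, by setting 3 serum-treated libraries against 3 libraries from PBS-injected mice of the same genotype. These 6 libraries were taken by their titles from the 21 of the series. The description rests on 3553 abundant genes, those with a mean of 50 or more CPM (library-scaled read counts) over the 6 libraries, of 13898 genes tested and 35598 genes listed. Laser microdissection was used to cut glomeruli out of kidney cryosections from females 3 months old, and RNA was sequenced as tags from the 3′ ends of transcripts, with 1 library per mouse. The serum group carried Epac1fl/fl alleles, received decomplemented nephrotoxic serum by vein on 2 consecutive days and was collected on day 4. The control group carried the same alleles and received PBS, and neither its day of collection nor the strain is given in the sources used here. The other libraries came from Epac1fl/fl mice at day 11 (4 mice) and from littermates with a podocyte Cre that deletes Epac1 there, after PBS (3 mice) or at day 4 (4 mice) and day 11 (4 mice).

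Nephrotoxic serum holds antibodies raised in another species against glomerular antigens. They bind along the filtration barrier, which is built from fenestrated endothelium, a collagen IV and laminin basement membrane, and the interlocking foot processes of podocytes, with mesangial cells holding the capillary loops together. Podocytes keep their shape by an actin cytoskeleton and a microtubule scaffold, and injury to them is known to flatten the foot processes.

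The 6 libraries held 15460846 to 24295712 reads and 9777 to 12055 detected genes. Detected genes numbered 9777 to 10973 under PBS and 11068 to 12055 at day 4, so these ranges did not overlap. The ribosomal RNA gene CT010467.1 took 21.9% to 22.9% of the reads under PBS and 15.2% to 23.3% at day 4. Over the abundant genes, the Spearman correlation between 2 libraries had a median of 0.583 within a group (0.498 to 0.672 over 6 pairs) and of 0.536 between the groups (0.457 to 0.616 over 9 pairs). Reads were found in at least 1 library for each of 34 podocyte, 28 glomerular endothelial and 20 mesangial or smooth muscle markers, and markers of the proximal tubule were present in all 6 libraries.

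No single gene passed the threshold. The edgeR quasi-likelihood test called 0 of 13898 genes (0%) at an adjusted p under 0.05, and 1102 (7.93%) stood at an unadjusted p under 0.05, while DESeq2 called 1126 genes, 50 of them abundant, and limma voom 62, of which 1 was abundant. Of the abundant genes, 186 (5.24%) stood at an unadjusted p under 0.05, 99 higher (2.79%) and 87 lower (2.45%) at day 4. The 3 day 4 libraries lay all above or all below the 3 PBS libraries for 526 abundant genes (14.8%), 259 higher (7.29%) and 267 lower (7.51%). Of these, 137 were also at least 2-fold higher (3.86% of abundant genes) and 138 at least 2-fold lower (3.88%). Some genes reached the minimum of 50 CPM only through the group where they were higher, so these counts are partly set by that minimum. The median log2 fold change of all abundant genes was −0.05, and 46.6% lay above 0. The plot of all abundant genes shows the size of these differences against the level. Exact permutation of 3 against 3 libraries cannot reach p < 0.05, so groups that do not overlap are a description here, and the words higher and lower below refer to values and not to calls.

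**Figure D1:**
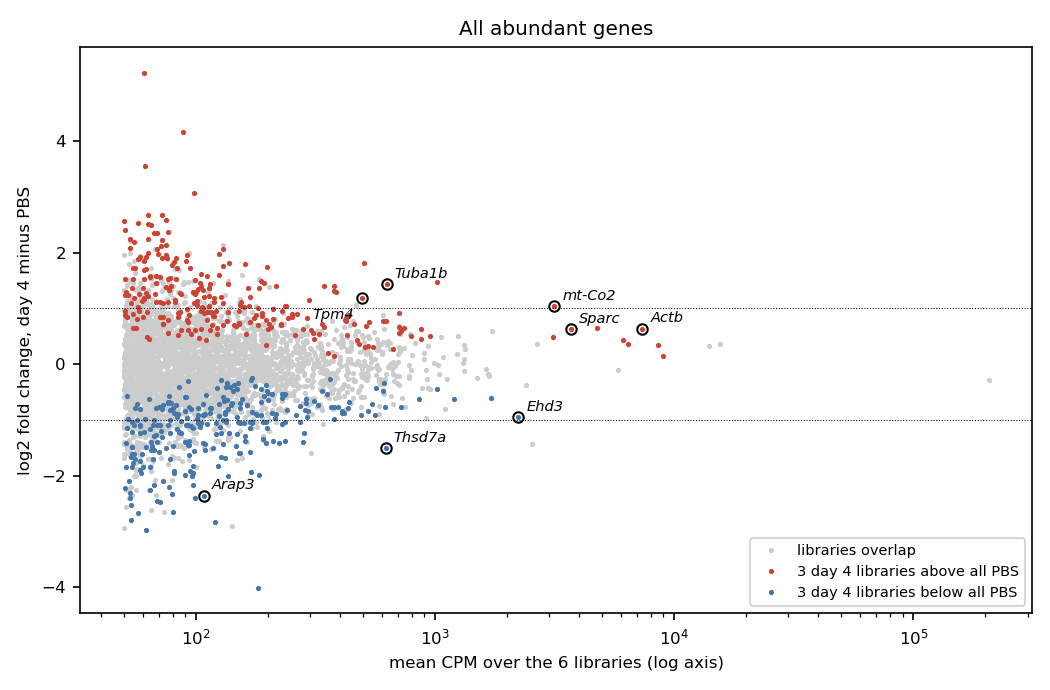
Log2 fold change at day 4 against PBS for the 3553 abundant genes (vertical axis, edgeR) by mean CPM over the 6 libraries (horizontal log axis). Red and blue points are the 259 and 267 genes whose 3 day 4 libraries lie all above or all below the 3 PBS libraries, grey points overlap, dotted lines mark a 2-fold difference, and wide differences gather at low levels.

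The 12 genes with the smallest p among those higher at day 4 held genes of tubulin, actin, tropomyosin and myosin. The α-tubulin gene Tuba1b (ENSMUSG00000023004.8; GRCm38 chromosome 15, 98931425 to 98934565, minus strand) stood at 356, 298 and 357 CPM in PBS replicates 1 to 3 and at 847, 654 and 1251 CPM at day 4. Each day 4 library exceeded each PBS library by a wide margin. The log2 fold change was 1.44 ± 0.27 (SE), and the adjusted p was 0.094 by edgeR, the lowest of any abundant gene. Over 16 alternative settings the adjusted p ran from 3.1e-06 to 0.71. The gene was called in 5 of them, namely DESeq2 (3.1e-06), edgeR on abundant genes alone (0.043), no low-count filter (0.023), without day 4 replicate 2 (0.031) and without a pair of thin Cre libraries (0.041), which had the fewest detected genes (day 4 replicate 3) and the fewest reads (day 11 replicate 3).

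The tropomyosin gene Tpm4 (ENSMUSG00000031799.10; GRCm38 chromosome 8, 72134975 to 72153142, plus strand), whose product stabilises actin filaments, stood at 288, 324 and 299 CPM under PBS. At day 4 it stood at 723, 687 and 665 CPM. The groups were tight and far apart, and the log2 fold change was 1.19 ± 0.31 (SE), at an adjusted p of 0.58 by edgeR. The second tropomyosin gene of these top ranks, Tpm3, went from 105, 70.5 and 121 CPM to 212, 290 and 329.8 CPM, again without overlap. The cytoplasmic actin genes were higher as well. Actb, β-actin, stood at 6012, 4803 and 6411 CPM under PBS and at 8174, 9808 and 8772 CPM at day 4, a log2 fold change of 0.64 ± 0.17 (SE). Actg1, γ-actin, stood at 146, 190.2 and 332 CPM under PBS and at 614, 471 and 1284 CPM at day 4 (1.82 ± 0.53). The lowest day 4 library lay above the highest PBS library for both. Myl12a, a regulatory light chain of non-muscle myosin, went from 138, 204.1 and 223 CPM to 461, 396 and 634 CPM (1.40 ± 0.39). Mtpn, whose product myotrophin binds the actin capping protein, stood at 80.4, 22.4 and 47.1 CPM against 231, 163 and 234 CPM (2.07 ± 0.60).

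The other genes of this rank were Ccnd1, Tnfaip2, Ran, Nme2 and Myadm. Ccnd1, cyclin D1, which drives entry into the cell cycle, stood at 222, 115 and 283 CPM under PBS and at 455, 439.6 and 752 CPM at day 4, 1.41 ± 0.38 apart on the log2 scale (SE; adjusted p = 0.58 by edgeR). Tnfaip2, a gene induced by tumour necrosis factor, stood at 21.6, 51.7 and 79.1 CPM against 198, 110.4 and 289 CPM (1.97 ± 0.53). Both groups of values were separate, though the gap for Tnfaip2 was narrow. The nuclear transport GTPase gene Ran was at 8.69, 5.69 and 44.4 CPM under PBS and at 102, 107 and 167 CPM at day 4 (2.67 ± 0.79). Nme2, a nucleoside diphosphate kinase gene, stood at 71.2, 75.3 and 68.9 CPM against 249, 159 and 342 CPM (1.80 ± 0.56). Myadm stood at 6.63, 30.1 and 29.3 CPM against 81.6, 124 and 108.2 CPM (2.25 ± 0.72). PBS libraries agreed closely for Nme2, while for Ran and Myadm 1 PBS library stood apart from the other two.

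**Figure D2:**
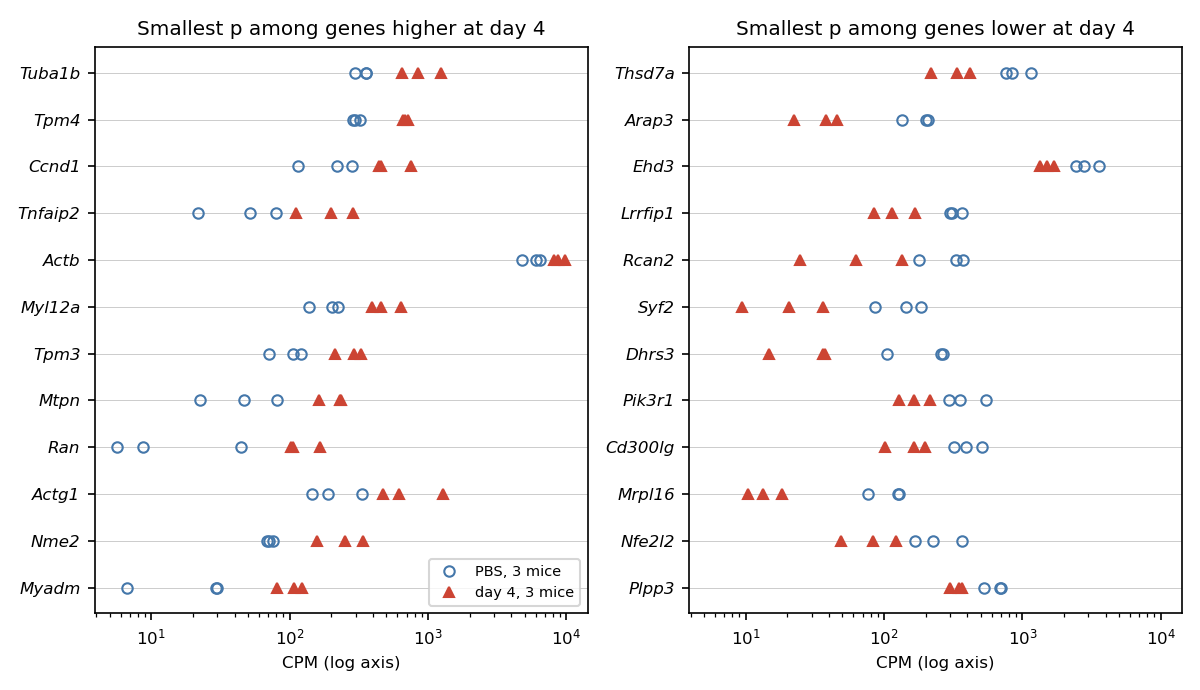
CPM (log axis) of the 12 genes with the smallest p among those higher at day 4 (left) and the 12 among those lower (right), which were chosen by these values. Each open circle is 1 of 3 PBS mice and each triangle 1 of 3 day 4 mice. Groups do not overlap for any of the 24 genes, as the choice required, with Actb and Ehd3 at the highest CPM.

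Among genes lower at day 4, the smallest p belonged to Thsd7a (ENSMUSG00000032625.14; GRCm38 chromosome 6, 12311610 to 12749410, minus strand), which encodes a podocyte membrane protein known as a target antigen in membranous nephropathy. It stood at 1161, 756 and 838 CPM under PBS and at 218, 418 and 337 CPM at day 4. The highest day 4 library lay well under the lowest PBS library, and the log2 fold change was −1.50 ± 0.31 (SE), at an adjusted p of 0.27 by edgeR. The adjusted p ran from 6.0e-05 to 0.83 over 16 alternatives, and the gene was called by DESeq2 (6.0e-05), voom (0.0043) and edgeR without a low-count filter (0.026). Ehd3 (ENSMUSG00000024065.8; GRCm38 chromosome 17, 73804134 to 73832094, plus strand), a membrane-trafficking gene marked by its high level in glomerular endothelium, stood at 3604, 2773 and 2421 CPM under PBS. At day 4 it stood at 1515, 1683 and 1344 CPM, and the log2 fold change was −0.95 ± 0.26 (SE), at an adjusted p of 0.59 by edgeR. No day 4 library reached a PBS library. Cd300lg, an endothelial receptor gene, went from 388, 508 and 319.5 CPM to 163, 196.6 and 102 CPM (−1.40 ± 0.44).

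Arap3, a GTPase-activating protein gene, stood at 208, 200.1 and 134 CPM under PBS and at 45.3, 38.1 and 22.2 CPM at day 4 (log2 fold change −2.36 ± 0.59, adjusted p = 0.51 by edgeR). Pik3r1, the main regulatory subunit gene of phosphoinositide 3-kinase, stood at 352, 543 and 297 CPM against 165, 128 and 215 CPM (−1.23 ± 0.38). Nfe2l2, which encodes the antioxidant regulator Nrf2, stood at 167.6, 365 and 226 CPM against 122, 83.4 and 48.7 CPM (−1.58 ± 0.52). Day 4 values of these 3 genes lay wholly below the PBS values. Rcan2, a calcineurin regulator gene, went from 372, 330.5 and 178 CPM to 24.5, 136 and 62.8 CPM, and Plpp3, a lipid phosphatase gene, from 702, 689 and 528 CPM to 363, 300.1 and 351 CPM. The remaining members of this rank were Lrrfip1 (−1.42 ± 0.41), the retinal reductase gene Dhrs3 (−2.83 ± 0.85), the splicing factor gene Syf2 (−2.65 ± 0.77) and the mitochondrial ribosome gene Mrpl16 (−2.97 ± 0.97). Mrpl16, with a mean of 62.1 CPM over the 6 libraries, reached the minimum of 50 CPM only through its PBS level. For both groups of 12, edgeR gave an adjusted p of 0.51 or more outside Tuba1b and Thsd7a.

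Groups of genes with a shared role were then described by their abundant members. Each list is given by counts and by the median log2 fold change, beside the same over all abundant genes (median −0.05, 46.6% above 0, 7.29% higher and 7.51% lower without overlap), and no list was tested. Of 31 lists, 28 had abundant members. The summed CPM of a list did not overlap between the groups for 8 of the 31, all higher at day 4, as the plot of summed levels shows. A sum rests mostly on the members with the highest CPM, and its separation is a description, as for single genes.

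**Figure D3:**
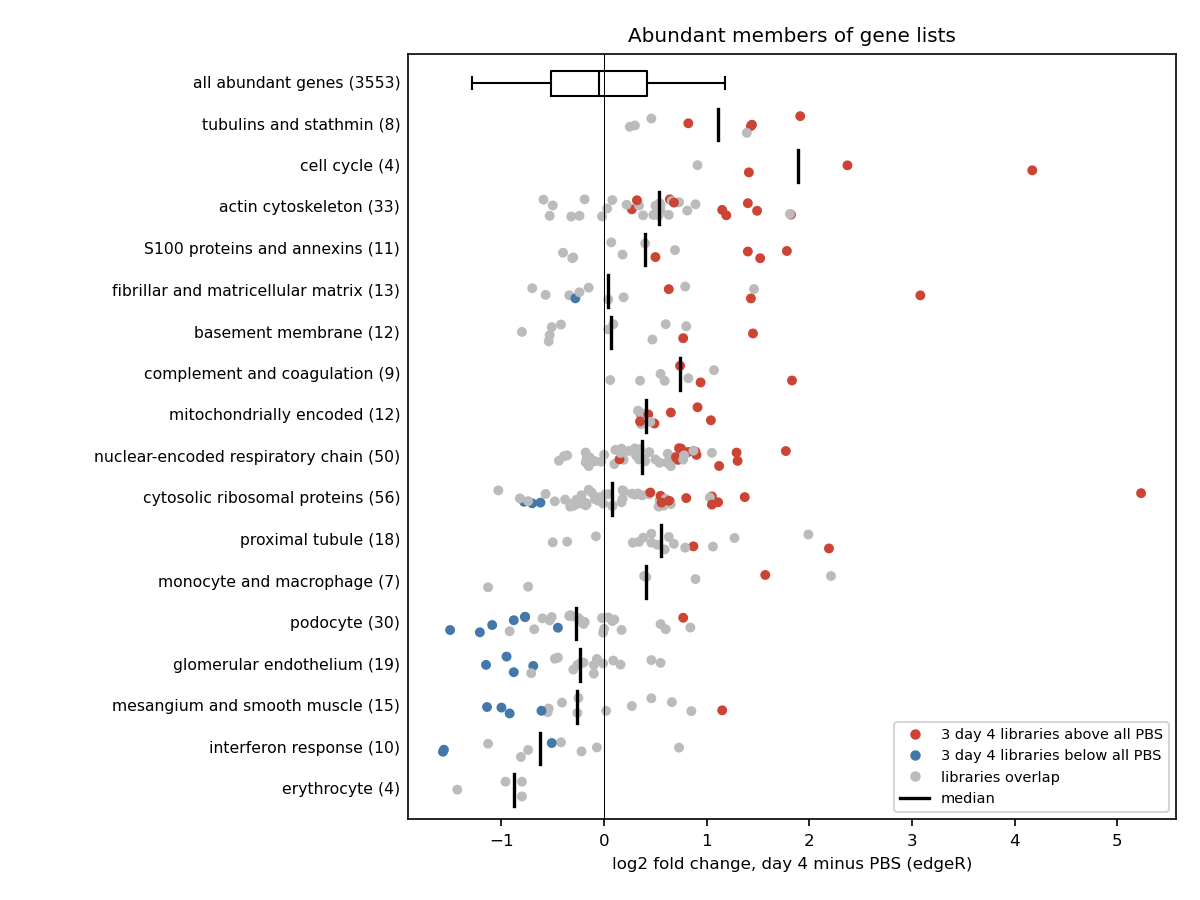
Log2 fold change at day 4 against PBS (horizontal axis, edgeR) of the abundant members of 17 gene lists, with the number of members in parentheses. Points are genes, coloured by whether the 3 day 4 libraries lie above, below or among the PBS libraries, bars are medians, and the box at the top spans the quartiles of all 3553 abundant genes with whiskers from the 5th to the 95th percentile. All 8 tubulin and stathmin points and all 12 mitochondrially encoded points lie above 0, and 15 of 19 endothelial points lie below.

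All 8 abundant members of the tubulin and stathmin list lay above 0, with a median of 1.10 (0.73 to 1.41 over 18 settings), and 4 of 8 (50%) were higher without overlap. Beside Tuba1b, the α-tubulin gene Tuba1a stood at 92.8, 64.1 and 64.5 CPM under PBS and at 214, 124 and 258 CPM at day 4. The β-tubulin gene Tubb4b stood at 301, 159 and 174 CPM against 346, 336 and 437 CPM. The list summed to 1031 ± 138 CPM under PBS and 2259 ± 603 CPM at day 4 (SD, n = 3 each), a ratio of 2.19 without overlap. Tubulin genes are near-identical in places, so the split of reads among Tuba1a, Tuba1b and Tuba1c is uncertain, and the same holds for Actb and Actg1.

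Of 33 abundant actin cytoskeleton genes, 26 (78.8%) lay above 0, with a median of 0.53 (0.33 to 0.58 over 18 settings). Groups did not overlap for 9, all higher (27.3%), and 10 stood at an unadjusted p under 0.05, all higher. In addition to Tpm4, Tpm3, Actb, Actg1 and Myl12a, the 9 held Acta2, Flna, Csrp1 and Tagln2. The list summed to 18298, 14662 and 17207 CPM under PBS and to 22331, 23577 and 26384 CPM at day 4. Each day 4 library was above each PBS library, and the ratio of means was 1.44. S100 proteins and annexins, which bind calcium at membranes and filaments, had 8 of 11 abundant members above 0, a median of 0.40 (0.21 to 0.51) and 4 members higher without overlap (36.4%). S100a6 stood at 31.3, 131 and 195 CPM under PBS and at 306, 301 and 340.5 CPM at day 4, and S100a10, the partner of annexin A2, at 28.3, 50.5 and 49.2 CPM against 105, 96.5 and 165 CPM. Anxa2 itself stood at 779, 757 and 838 CPM against 1181, 1262 and 907 CPM. All 3 genes were separate between the groups, with the day 4 library of replicate 3 closest for Anxa2. S100a10 reached the minimum of 50 CPM only through its day 4 level, so the share without overlap is partly set by that minimum.

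Serum response factor is a transcription factor known to control many actin genes through the CArG box, a short motif. RefSeq promoter windows (GRCm38.p6, from 250 bases before to 50 after a transcript's start) were found for 31 of the 33 abundant actin genes, all but Actb and Tagln, and were searched on both strands for exact CArG boxes. The motif stood in 7 of 38 windows of the list (18.4%), against 535 of 32851 windows (1.63%) of all genes. By gene it stood in 6 of 31 (19.4%), against 488 of 27025 (1.81%). The list was made of actin genes, so these shares describe the list and not the day 4 difference. The motif was in 0 of 11 windows searched for the 15 abundant mesangial and smooth muscle genes, and in 0 of 6 searched for the 8 abundant tubulin and stathmin genes. Genes with the motif did not share a direction: log2 fold changes at day 4 were 1.82 ± 0.53 for Actg1, 0.63 ± 0.28 for Myl9, 0.38 ± 0.56 for Cnn2, 0.34 ± 0.24 for Myl6, −0.02 ± 0.53 for Vcl and −0.53 ± 0.61 for Fhl2 (SE). The matches are shown because Actg1 and Myl9 are members of the list with an unadjusted p under 0.05, with 10 bases of sequence on each side, read 5′ to 3′ on the gene's strand and the motif in capitals.
Actg1 (chr11:120348566-120348595, minus strand): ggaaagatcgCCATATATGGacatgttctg
Myl9 (chr2:156775293-156775322, plus strand): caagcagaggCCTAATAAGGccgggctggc
Cnn2 (chr10:79988534-79988563, plus strand): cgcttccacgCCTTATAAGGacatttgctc
Myl6 (chr10:128493040-128493069, minus strand): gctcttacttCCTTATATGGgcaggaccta
Vcl (chr14:20929161-20929190, plus strand): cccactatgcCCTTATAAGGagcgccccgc
Fhl2 (chr1:43196838-43196867, minus strand): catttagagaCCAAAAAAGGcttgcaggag
Fhl2, another start (chr1:43163973-43164002, minus strand): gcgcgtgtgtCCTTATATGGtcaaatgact
The same core letters stood in Cnn2 and Vcl, and another pair of windows, of Myl6 and Fhl2, shared a core. The first base of the core lay 90 bases before the start in Actg1, 56 in Cnn2, 50 in Myl6 and 227 in Vcl.

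Genes of the cell cycle were higher in level, from a low base. Of 42 list members, 41 were tested and 4 were abundant, all 4 above 0 with a median of 1.89 (1.41 to 2.94 over 18 settings), and 3 of them were higher without overlap. Top2a and Mcm7 reached the minimum of 50 CPM only through their day 4 levels, so the count and the median of these 4 genes support nothing about the list. Top2a, the topoisomerase that untangles replicated DNA, stood at 18, 9.95 and 0 CPM under PBS and at 179.4, 172 and 152 CPM at day 4, with 521 and 10556 reads in the groups. Mcm7, a helicase subunit, stood at 0, 44.1 and 30 CPM against 126, 131 and 126 CPM. These low PBS levels left wide errors, at 4.17 ± 1.83 and 2.37 ± 1.95 on the log2 scale (SE). Mki67, which encodes the proliferation marker Ki-67, was not abundant and is named after its values were seen. It had 6 reads under PBS, all in replicate 3 (0.334 CPM), and 3562 reads at day 4 (56.3, 74.5 and 37.6 CPM). The summed level of the list without Ccnd1 was 355, 136 and 372 CPM under PBS and 1085, 1025 and 1237 CPM at day 4, a ratio of 3.88 without overlap. Day 4 libraries also had more detected genes, as given above, and the part of this in the low PBS values was not tested.

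**Figure D4:**
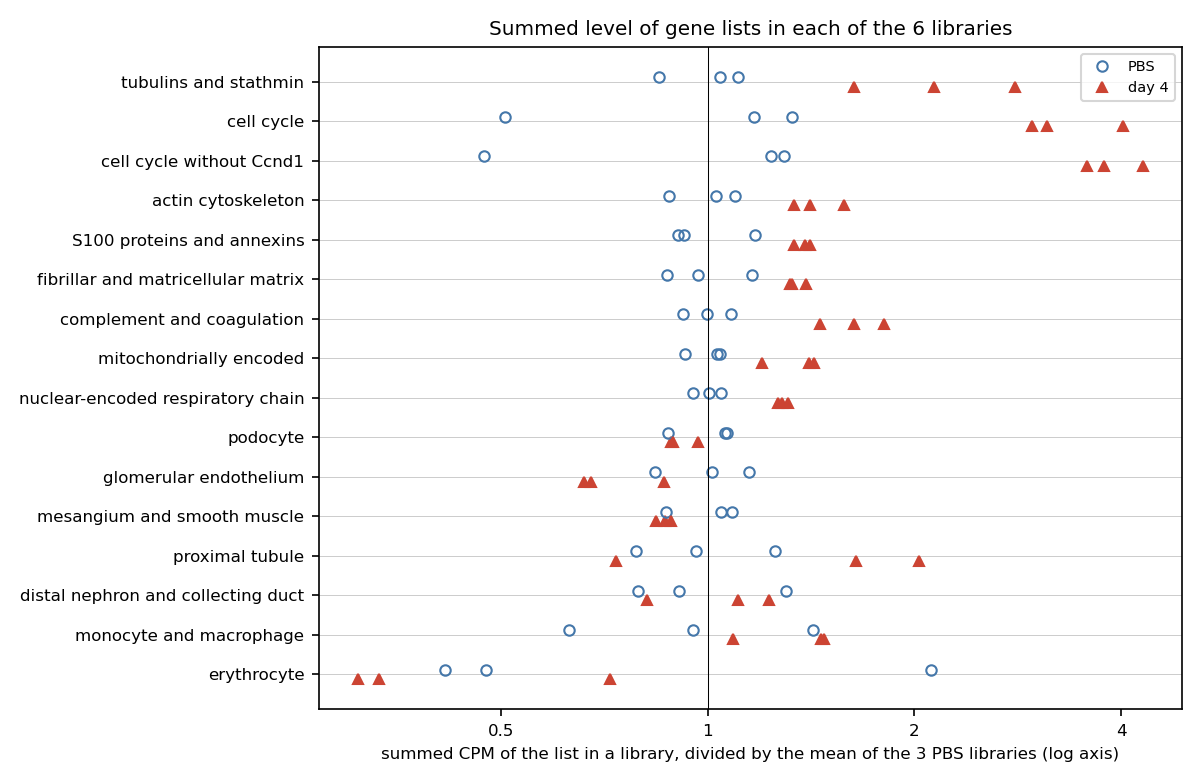
Summed CPM of 16 gene lists in each library, divided by the mean of the 3 PBS libraries (horizontal log axis). Open circles are PBS mice and triangles day 4 mice. The groups are separate for the upper 9 rows, of which 1 is the cell cycle list without Ccnd1, and overlap for the 7 cell type lists below, where 1 PBS library is far above the others for the erythrocyte list.

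Podocyte genes tended to lower values, with Dag1 and Podxl among those above 0. Of 34 list members 30 were abundant, and 21 lay below 0, with a median of −0.28 (−0.38 to −0.18 over 18 settings). Without overlap, 7 were lower (23.3%) and 1 was higher. Vegfa, the growth factor that podocytes supply to the glomerular endothelium, stood at 533, 455 and 598 CPM under PBS and at 188, 325 and 351 CPM at day 4 (log2 fold change −0.88 ± 0.37, SE, unadjusted p = 0.023, adjusted p = 0.59 by edgeR). Cd2ap, a slit diaphragm adaptor gene, stood at 415, 557 and 417 CPM against 353, 254 and 209 CPM. Pla2r1, which encodes the phospholipase A2 receptor, another target antigen of membranous nephropathy, stood at 88.3, 101.3 and 91.4 CPM against 27.6, 54.8 and 50 CPM. Cd2ap and Pla2r1 were lower in each day 4 library than in any PBS library and are named after their values were seen. Pla2r1 reached the minimum of 50 CPM only through its PBS level, so the share lower without overlap is partly set by that minimum. Dag1, the dystroglycan gene that anchors podocytes to the basement membrane, went the other way, from 457, 442 and 492 CPM to 777, 662 and 926 CPM (0.77 ± 0.32).

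The podocyte genes Nphs1, Podxl, Synpo and Wt1 overlapped between the groups. Nphs1, which encodes nephrin, stood at 588, 474.5 and 579 CPM under PBS and at 347, 511 and 221 CPM at day 4 (−0.60 ± 0.37). Podxl, the gene of the surface sialoprotein podocalyxin, stood at 1302, 1075 and 1765 CPM against 1680.2, 1477 and 3131 CPM (0.60 ± 0.42, and 0.17 without day 4 replicate 3). Synpo, which encodes the actin-associated synaptopodin, stood at 1439, 1343 and 2099 CPM against 1356, 1812 and 934 CPM (−0.25 ± 0.29), and the transcription factor gene Wt1 at 139.5, 120.0 and 231 CPM against 92.5, 152 and 61.4 CPM (−0.68 ± 0.62). Day 4 replicate 3 was the lowest library for Nphs1, Synpo and Wt1 and the highest for Podxl. The summed podocyte level was 13464 ± 1442 CPM under PBS and 12293 ± 624 CPM at day 4 (SD, n = 3 each), a ratio of 0.913 with overlap. In bulk glomerular RNA, fewer cells of a type and less of its RNA per cell cannot be told apart.

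Rapgef3 (GRCm38 chromosome 15, 97744770 to 97767972), the floxed gene, encodes Epac1, a cyclic AMP sensor that activates Rap GTPases. It stood at 310.2, 201 and 299.8 CPM under PBS and at 124, 217 and 231 CPM at day 4, with overlap between the groups (log2 fold change −0.50 ± 0.46, SE; adjusted p = 1 by edgeR). Of the 10 abundant genes of Epac, Rap and protein kinase A signalling, 5 lay above 0 and 5 below, with a median of −0.07 (−0.45 to 0.08 over 18 settings). Prkacb, a catalytic subunit gene of protein kinase A, stood at 256, 214 and 73.5 CPM under PBS and at 58.2, 90.4 and 59.8 CPM at day 4 (−1.38 ± 0.56, unadjusted p = 0.018, adjusted p = 0.59 by edgeR), and PBS replicate 3 fell within the day 4 range. Rap1a stood at 1.46 ± 1.12 and the regulatory subunit gene Prkar1a at 0.52 ± 0.39 on the log2 scale, both with overlap.

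Endothelial markers leaned lower. Of 19 abundant members, 15 lay below 0 and 4 above (21.1%), with a median of −0.23 (−0.51 to −0.11 over 18 settings), and 4 (21.1%) were lower without overlap against 0 higher. Beside Ehd3, the 4 held Pi16 (379, 219 and 219.9 CPM under PBS and 131, 84.4 and 153.2 CPM at day 4), the tyrosine phosphatase gene Ptprb and the angiopoietin receptor gene Tek. Ptprb, whose product restrains the Tek receptor, stood at 449, 471 and 702 CPM against 315, 347 and 218 CPM. The receptors of Vegfa overlapped between the groups. Kdr stood at 1178, 839.9 and 1281 CPM under PBS and at 709, 857 and 844 CPM at day 4 (−0.45 ± 0.25), and Flt1 at 235, 233 and 242 CPM against 224, 313 and 253 CPM (0.16 ± 0.58). Both are named for their role after their values were seen. The summed endothelial level was 8926 ± 1385 CPM under PBS and 6548 ± 1011 CPM at day 4 (SD, n = 3 each), with overlap.

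Mesangial and smooth muscle markers lay on both sides of 0. Acta2, smooth muscle actin, stood at 162, 114 and 281 CPM under PBS and at 486, 297 and 453 CPM at day 4, a log2 fold change of 1.15 ± 0.42 (SE, unadjusted p = 0.0096, adjusted p = 0.59 by edgeR). Of the 15 abundant members it was the 1 higher without overlap (6.67%), while 4 were lower (26.7%) and the median was −0.26 (−0.48 to −0.06 over 18 settings). Itga8, the integrin that binds mesangial cells to their matrix, stood at 207, 184 and 131 CPM against 31.1, 115 and 115 CPM, and the angiotensin receptor gene Agtr1a at 142, 109 and 152 CPM against 33.2, 91.8 and 87.9 CPM. Day 4 replicate 1 was the lowest library for both. Ren1, renin, and Notch3, which are named after their values were seen, were the other 2 lower without overlap. Ren1 stood at 2211, 1734 and 2257 CPM against 1307, 1191 and 1562 CPM, with a log2 fold change of −0.61 ± 0.57.

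Collagen and laminin genes of the basement membrane gave a mixed picture. Of 12 abundant members 7 lay above 0 and the median was 0.06, which changed sign under 4 of 18 settings (−0.07 to 0.27). Col4a1, a chain of the collagen IV of mesangium and vessels, stood at 380.0, 418 and 547 CPM under PBS and at 716, 734 and 837 CPM at day 4, without overlap (0.77 ± 0.28, unadjusted p = 0.0097, adjusted p = 0.59 by edgeR). Col4a3, a chain of the mature glomerular collagen IV made by podocytes, stood at 611, 627 and 378 CPM against 236, 538 and 155.4 CPM, with overlap (−0.80 ± 0.42). Hspg2, perlecan, stood at 60.1, 28.3 and 79.4 CPM against 104, 85.1 and 269.8 CPM (1.45 ± 0.77, and 0.74 without day 4 replicate 3).

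Of 13 abundant genes of fibrillar and matricellular matrix, 7 lay above 0 and the median was 0.04, with another sign under 4 of 18 settings. The list's summed level was nonetheless separate, at 6590.2, 4947 and 5488 CPM under PBS and 7477, 7517 and 7880.5 CPM at day 4. The largest single contributor to this sum was Sparc, a collagen-binding matricellular protein gene, at 3164, 2195 and 3343 CPM under PBS and 4053, 4878 and 4555 CPM at day 4 (0.63 ± 0.22, unadjusted p = 0.0081, adjusted p = 0.59 by edgeR). Spp1, osteopontin, stood at 51.6, 57.2 and 78 CPM against 179.7, 83.5 and 239 CPM, with day 4 replicate 2 just above the PBS range. Lgals1, galectin-1, stood at 10.8, 37.5 and 13.9 CPM against 147, 92.4 and 286 CPM (3.08 ± 1.26). Lgals1 reached the minimum of 50 CPM only through its day 4 level. The counts and the median of these 13 genes are therefore partly set by that minimum.

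Genes of mitochondrial respiration were higher on both genomes. All 12 abundant mitochondrially encoded genes lay above 0, with a median of 0.41, and 7 (58.3%) were higher without overlap. The cytochrome oxidase subunit gene mt-Co2 stood at 1588, 2129 and 2469 CPM under PBS and at 3921, 3541 and 5226 CPM at day 4 (1.04 ± 0.39, unadjusted p = 0.015, adjusted p = 0.59 by edgeR). The list summed to 56018 ± 3598 CPM under PBS and 75292 ± 7099 CPM at day 4 (SD, n = 3 each), without overlap. Of 50 abundant nuclear genes of the respiratory chain, 39 (78%) lay above 0, with a median of 0.37, and 13 (26%) were higher without overlap against 0 lower. Cox8a, a small oxidase subunit gene, stood at 652, 525 and 558 CPM under PBS and at 1062, 833 and 836 CPM at day 4, and Cox6a1 at 343.5, 419 and 422 CPM against 581, 575.5 and 829.6 CPM.

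Proximal tubule cells are rich in mitochondria, and their markers are given here beside the mitochondrial lists. Of 18 abundant members of the proximal tubule list, 15 (83.3%) lay above 0, with a median of 0.56, and 2 were higher without overlap (11.1%). Their summed level was 3188, 5081 and 3908 CPM under PBS and 6675, 8248 and 2988 CPM at day 4, so replicates 1 and 2 of day 4 lay above all PBS libraries and replicate 3 below them. With the mean log2 level of this list as a covariate, which was chosen after seeing the data, the medians fell to 0.10 for the mitochondrially encoded list and to 0.17 for the nuclear respiratory chain. The mitochondrially encoded sum was 51875, 57824 and 58354 CPM in PBS replicates 1 to 3 and 78682, 80061 and 67133 CPM at day 4. The fit with this covariate is also among the 18 settings behind the ranges of the other lists. The part that tubule RNA had in the difference of any list was not tested.

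Interferon response genes leaned lower among the abundant members. Of 10 abundant members 9 were below 0, with a median of −0.63 (−0.86 to −0.29 over 18 settings), and 3 (30%) were lower without overlap. Irf9, a subunit of the complex that carries the interferon signal to the nucleus, stood at 156, 98.4 and 61.4 CPM under PBS and at 45.6, 41.2 and 19.2 CPM at day 4. The groups were separate, but the log2 fold change of −1.57 ± 0.84 (SE) did not reach an unadjusted p under 0.05. Irf9 reached the minimum of 50 CPM only through its PBS level. The counts and the median of these 10 genes are therefore partly set by that minimum. The interferon list summed to 2837, 1778 and 2297 CPM under PBS and to 1862, 1484 and 1576 CPM at day 4, with overlap. Antigen presentation genes leaned the other way, with 6 of 8 abundant members above 0 and a median of 0.48 (0.23 to 0.62), and 0 of 8 separate between the groups.

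Complement and coagulation genes had 9 of 9 abundant members above 0, a median of 0.74 (0.57 or more under each of 18 settings) and 3 higher without overlap (33.3%). Thbd, thrombomodulin, the endothelial cofactor that turns thrombin towards anticoagulation, stood at 23.6, 57.7 and 25.3 CPM under PBS and at 159, 88.2 and 132 CPM at day 4. Clu, clusterin, a regulator of terminal complement, stood at 66.7, 120.0 and 152.6 CPM against 177.2, 223 and 167 CPM. Their errors were wide, at 1.83 ± 1.19 and 0.74 ± 0.46 on the log2 scale (SE), and 0 of the 9 stood at an unadjusted p under 0.05. Thbd reached the minimum of 50 CPM only through its day 4 level, and C1ra, at a log2 fold change of 1.07, had a mean of 51.1 CPM. The counts and the median of these 9 genes are therefore partly set by that minimum. The list summed to 754, 818 and 885 CPM under PBS and to 1337, 1192 and 1478 CPM at day 4, without overlap.

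Markers of circulating and infiltrating cells were sparse. Of 28 monocyte and macrophage markers 7 were abundant, with 5 above 0 and a median of 0.41 (0.03 to 0.78 over 18 settings), and 1 was higher without overlap, the lysosomal gene Laptm5. Lgals3, galectin-3, stood at 39.4, 3.48 and 13.6 CPM under PBS and at 23.5, 117 and 121 CPM at day 4, where replicate 1 stayed within the PBS range. The 2 members below 0 were the complement gene C1qa (−1.13 ± 1.48) and the growth factor receptor gene Csf1r (−0.74 ± 0.83, SE), both with overlap and named after their values were seen. Lgals3 and Laptm5, the latter with a mean of 71.1 CPM and a log2 fold change of 1.57, reached the minimum of 50 CPM only through day 4. C1qa, which was lower, had a mean of 50.8 CPM. The counts and the median of these 7 genes are therefore partly set by that minimum. The summed level was 933, 412.5 and 625 CPM against 961, 971 and 715 CPM, with overlap. No neutrophil, lymphocyte or platelet marker was abundant, and 7 of 14, 10 of 20 and 4 of 7 of them were at 0 in all 6 libraries. The neutrophil genes Ly6g, Mpo and Elane and the T and B cell genes Cd3e, Cd4 and Ms4a1 were among those at 0. Other members had reads. The neutrophil list summed to 0.263, 21.8 and 96.9 CPM under PBS and to 51.4, 11.4 and 73 CPM at day 4. The lymphocyte list summed to 2.74, 0 and 78.9 CPM against 20.2, 226.6 and 99.3 CPM. The platelet list summed to 0.368, 0 and 4.73 CPM against 0.32, 0.591 and 32.3 CPM. Each of these sums overlapped between the groups. Haemoglobin and other erythrocyte genes summed to 14459.5 CPM in PBS replicate 3 and to 2120.3 to 4933 CPM in the other 5 libraries, and the list's median of −0.88 over 4 genes turned to 0.19 without that library.

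Ribosomal protein genes had 31 of 56 members above 0 and a median of 0.08 (−0.05 to 0.17), with 11 higher and 3 lower without overlap. Rpl27 stood at 1.05 ± 0.39 on the log2 scale (SE). Glycolysis had 8 of 10 abundant members above 0 (median 0.24), cytosolic heat shock 10 of 12 (0.28), and antioxidant genes 12 of 16 (0.31), each above 0 under all settings tried. The antioxidant list holds known targets of Nrf2, whose own gene Nfe2l2 was lower as given above. The medians of the lists of endoplasmic reticulum stress (0.07), immediate early genes (0.21), NF-κB targets (0.06), TGF-β signalling (−0.18), parietal epithelium (−0.19) and distal nephron (0.30) each took the other sign under at least 1 setting.

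The same contrast in littermates with the podocyte Cre used 7 other mice and no shared control, so the direction of these differences could be read in a separate contrast. The Cre libraries entered the same fit and so shared its estimate of spread, on which the p-values that ranked the genes rest. Of the 137 abundant genes at least 2-fold higher without overlap in Epac1fl/fl mice, 92 (67.2%) lay above 0 in the Cre littermates, against 48.7% of all abundant genes. Of the 138 lower genes, 87 (63%) lay below 0 there, against 51.3% of all. Without the pair of thin Cre libraries, of which 1 is among these 7, the shares were 68.6% and 64.5%, against 50.3% and 49.7% of all abundant genes. With all 7 libraries the median log2 fold changes were 0.30 and −0.18 in the littermates and 1.45 and −1.45 in the Epac1fl/fl mice that chose them. Of the 12 genes with the smallest p in each direction, 11 of the higher and 9 of the lower kept their sign. Median log2 fold changes of these 12 higher and 12 lower genes were 0.76 and −0.22 in the littermates. In Epac1fl/fl mice they were 1.65 and −1.54. Tuba1b stood at 1.01 ± 0.25 and Tpm4 at 1.22 ± 0.29 in the littermates, and Thsd7a at −1.18 ± 0.29 and Cd300lg at −1.16 ± 0.40 (SE). Tubulin genes lay above 0 for 8 of 8 there and actin genes for 27 of 33, with medians of 0.88 and 0.63. Complement and coagulation genes lay above 0 for 5 of 9 there (median 0.14, against 0.74 in Epac1fl/fl mice) and cytosolic heat shock genes for 7 of 12 (0.18, against 0.28). Endothelial genes lay below 0 for 11 of 19 there, against 15 of 19. The parietal epithelium median was 0.54 in the littermates and −0.19 in Epac1fl/fl mice. The abundant members of each list were taken by their level in the Epac1fl/fl libraries, and differences between the genotypes were not tested for any list.

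Other genes of the Epac1fl/fl rank stood near 0 in the littermates. Ehd3 was at −0.20 ± 0.24, Arap3 at −0.23 ± 0.52, Pik3r1 at −0.01 ± 0.35 and Mtpn at −0.24 ± 0.54 (SE), and Syf2 was at 1.32 ± 0.70, above 0. The test of nephritis by genotype at day 4 called 0 of 13898 genes (0%) by edgeR, with 1076 (7.74%) at an unadjusted p under 0.05, of which 93 were abundant (2.62% of them), while DESeq2 called 1113 and voom 10. The difference between genotypes was −3.97 for Syf2 (unadjusted p = 5.9e-04, adjusted p = 1 by edgeR) and −2.13 for Arap3 (unadjusted p = 0.01, adjusted p = 1 by edgeR). Of the 24 genes with the smallest p, 8 stood at an unadjusted p under 0.05 for this difference by edgeR, 1 higher and 7 lower. Since these genes were chosen by their Epac1fl/fl values, which enter that difference, the 2 values and this count are a description.

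**Figure D5:**
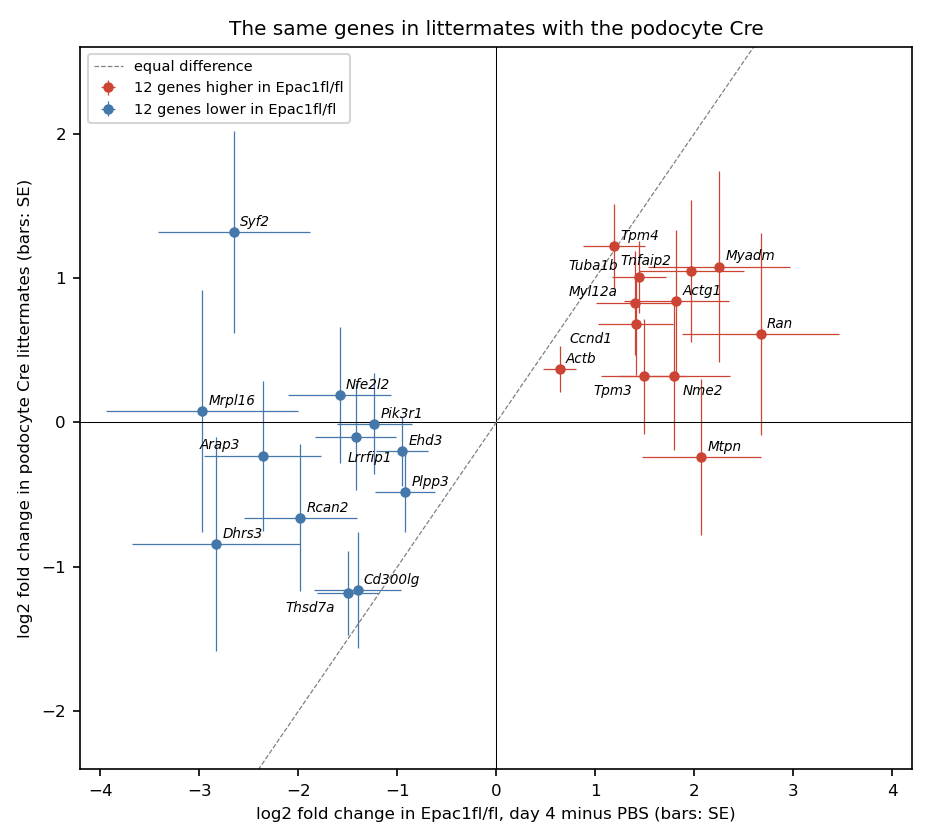
Log2 fold change at day 4 against PBS in Epac1fl/fl mice (horizontal axis) and in podocyte Cre littermates (vertical axis) for the 12 higher (red) and 12 lower (blue) genes with the smallest p in Epac1fl/fl mice. Bars are SE from edgeR and the dashed line marks equal differences. Tpm4, Thsd7a, Cd300lg, Actb and Tuba1b lie within 0.5 of the line, as does Plpp3, and Mtpn, Syf2, Mrpl16 and Nfe2l2 have the other sign in the littermates.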

How the data were processed

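Per the labels' protocols, glomeruli were microdissected and QuantSeq FWD libraries made. The tools DRAGEN, fastp, FastQC and Picard and the build mm10 are named, per the submitters' processing notes, without versions or roles. The authors deposited unnormalized estimated counts for each gene, per the file headers. How strand and duplicates were handled, and which annotation was used, is not given in the sources, so overlapping, antisense and near-identical genes are uncertain. Symbols came from GENCODE M21.

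Counts were rounded and tested with edgeR 4.0.16 (R 4.3.3; filterByExpr, minimum count 10; TMM; robust quasi-likelihood F test; Benjamini-Hochberg over 13898 genes). All 21 libraries entered, as 6 group means with 15 residual degrees of freedom. CPM used library sizes multiplied by the TMM factors. The alternatives were DESeq2 1.42.0, limma 3.58.1 voom, other filters, factors, gene sets and libraries, and a replicate block. Figures used matplotlib 3.10.9 in Python 3.11.15.

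The libraries compared, the 31 lists and the rules were chosen with earlier results of these data known. Named genes were the 12 with the smallest p in each direction among abundant, non-overlapping, non-predicted genes, up to 3 abundant members with the smallest p per list, and Rapgef3, Nphs1, Podxl, Synpo, Wt1 and Thsd7a. Each library is 1 mouse, and counting intervals and p-values do not separate technical from biological spread.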

Additional observations from a re-analysis of the deposited data

How the results depend on the processing

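Of the named genes, 97 of 104 kept their sign in every setting that gave a value (15 or 16 a gene), as did 16 of 28 list medians (17 or 18 a list). Against 0 genes called by edgeR, DESeq2 called 1126 and voom 62, and edgeR called 1 when only abundant genes were fitted, 2 without a low-count filter and 1 without the podocyte Cre libraries day 4 replicate 3 and day 11 replicate 3, a setting chosen after seeing the data. Leaving out 1 library gave 0 to 3 calls (3 without PBS replicate 3, 1 without day 4 replicate 2). For nephritis by genotype, DESeq2 called 1113 and voom 10, and a fit of the 6 libraries alone gives no value. Abundant genes at an unadjusted p under 0.05 numbered 117 (without day 4 replicate 3) to 219 when 1 library was left out. With median-ratio factors they numbered 192 (82 higher, 110 lower) against 99 higher and 87 lower. Separate genes with a 2-fold difference numbered 618 at a minimum of 20 CPM, 103 at 100 CPM and 400 to 568 with 1 library fewer, since fewer samples separate more easily. Replicate numbers did not pair the samples (correlations of 0.02, 0.04 and 0.03), and with the replicate block 0 genes were called, 92 stood higher and 77 lower at an unadjusted p under 0.05, and 276 were separate. Signs turned for Nfkbia (0.06 without PBS replicate 1, range −0.68 to 0.06 over single libraries left out), Klf6 (0.15 without PBS replicate 2, range −0.86 to 0.15), Hbb-bs (0.47 without PBS replicate 3, range −1.25 to 0.47), Eng (−0.07 without day 4 replicate 2, range −0.07 to 0.82), Hspa8 (−0.14 without day 4 replicate 3, range −0.14 to 0.76), and Spink1 (−0.04) and Fxyd2 (−0.10) with the proximal tubule covariate. The cause was not tested. The biological coefficient of variation had a median of 0.701 over abundant genes and 1.68 over all genes tested. In the main fit edgeR called neither small nor large differences, and the part of the spread in this was not tested. Rpl5, at a log2 fold change of 5.23, and Lgals1, at 3.08, each had an adjusted p of 0.59 by edgeR. Over single libraries left out these fold changes ran from 3.46 to 10.37 and from 2.52 to 3.83.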
